A study of Homo sapiens with 2 samples.

Results

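The mRNAs of cell cycle and DNA replication genes were searched for binding sites of YBX1 (Y-box binding protein 1), an RNA-binding protein with a cold-shock domain. The 46 genes encode cyclins, cyclin-dependent kinases (CDKs) and their inhibitors, RB1 and E2F factors, mitotic kinases, checkpoint proteins and the enzymes that license and copy DNA. A binding site was assigned to a gene when its midpoint lay within the span of that gene in GENCODE release 44, on the strand of the site. By this rule 24 of 2054 listed sites (1.17%) fell into 15 of the 46 genes, and the exact Poisson 95% interval of 24 is 15.4 to 35.7. The sites came from PAR-CLIP, in which 4-thiouridine in new RNA crosslinks to bound protein under UV light and RNase T1, which cuts after G, trims the RNA. The experiment used HEK293, a human embryonic kidney line, in 2 replicates, and no input or control immunoprecipitation was used here. The labels name the antibody D2A11 against YBX1, whereas according to the methods YBX1 carrying a FLAG/HA tag was stably overexpressed in T-REx HEK293 Flp-In cells and pulled down through its FLAG tag. Both replicates were merged into 1 list of positions with no reads or scores, so there is no spread between replicates, no test was run, and each interval below covers counting error only. The list holds no expression values either, so the cell line label could not be checked against markers, and a gene without a site in the list may still be bound.

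Progress through the cell cycle depends on cyclins, which rise and fall and switch on their CDKs. D-type and E-type cyclins act before and at the entry into S phase, A-type cyclins in S phase and B-type cyclins in mitosis. Origins of replication are licensed in G1 phase, when ORC, CDC6 and CDT1 load the MCM helicase, and geminin (GMNN) blocks CDT1 afterwards. YBX1 is known as a cytoplasmic mRNA-packaging protein with a preference for C- and A-rich RNA, and is known to affect the stability and translation of the mRNAs it binds.

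The sequences are shown of sites in cyclins, CDK1, CDK2, licensing factors and the helicase subunits MCM2 and MCM6. They show both the C- and A-rich character of most sites and the G at their ends. The sites in CDT1 and RRM2 are shown since they hold the most A and the most T. All sequences were read from hg38 on the strand of the gene, 5′ to 3′ and with T for U. Capitals mark the string CATC, that of CAAC, that of CACC or that of AACA.
CCND2 site 1, chr12:4301172-4301196: acattccCATCaCAACAttcctcag
CCND2 site 2, chr12:4301720-4301738: tCATCCATCcttattcacg
CCND2 site 3, chr12:4303153-4303171: taactttccactcttcctg
CCND2 site 4, chr12:4304502-4304528: atatttattacttcctcataccacatg
CCND2 site 5, chr12:4304849-4304867: cCAACtcttaCATCcccag
CCNB1 site 1, chr5:69177239-69177262: aCACCAACtctaCAACAttacctg
CCNB1 site 2, chr5:69177707-69177724: catttacttttaataaag
CDK1, chr10:60788062-60788083: ttatttataccaaatcctacag
CDK2 site 1, chr12:55968148-55968169: cattcctcttcccctCATCaag
CDK2 site 2, chr12:55971731-55971751: ccttaAACActCACCttctag
GMNN site 1, chr6:24781514-24781538: accacttAACATCtaCAACttccag
GMNN site 2, chr6:24785870-24785895: tacataactacataatgcCAACtctg
CDT1, chr16:88808996-88809017: tctcaaaaaaaaaaatttcaag
MCM2, chr3:127608843-127608862: CATCtatcaCAACAACtatg
MCM6, chr2:135872710-135872731: CAACtttcCACCACCattcaag
RRM2, chr2:10129417-10129439: attttttttttcCATCtcataag
All 16 end in G, and several pack more than 1 of the marked strings into a single site. Among the sites not printed, those of CDK6, RB1 and MAD2L1 and MCM4 sites 2 and 3 hold none of these strings. Those of CDKN1B and WEE1 and MCM4 site 1 hold at least 1.

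Of the 46 genes, 15 carried at least 1 site (32.6%, Wilson 95% interval 20.9 to 47.0), where 6.81% of 20046 protein-coding genes did. The 46 genes were chosen with earlier results of these data known, so the difference is a description and was not tested. At least 2 sites were present in 5 of the 46 genes (10.9%) and in 1.52% of protein-coding genes. The 5 genes were CCND2 with 5 sites, MCM4 with 3, and CCNB1, CDK2 and GMNN with 2 each. Expression in HEK293 cells is not part of these data, so the background holds genes that these cells may not transcribe, and the part that expression and transcript length play in the difference was not tested. By role, sites were present in 1 of 3 D-type cyclins, 1 of 2 B-type cyclins, 3 of 4 CDKs, 2 of 4 licensing genes and 3 of 6 MCM genes. The E- and A-type cyclins (CCNE1, CCNE2 and CCNA2), the mitotic kinases (PLK1, AURKA and AURKB) and the replication fork genes (PCNA, RFC1, RPA1, POLA1, POLE and TOP2A) had 0 listed sites.

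**Figure D1:**
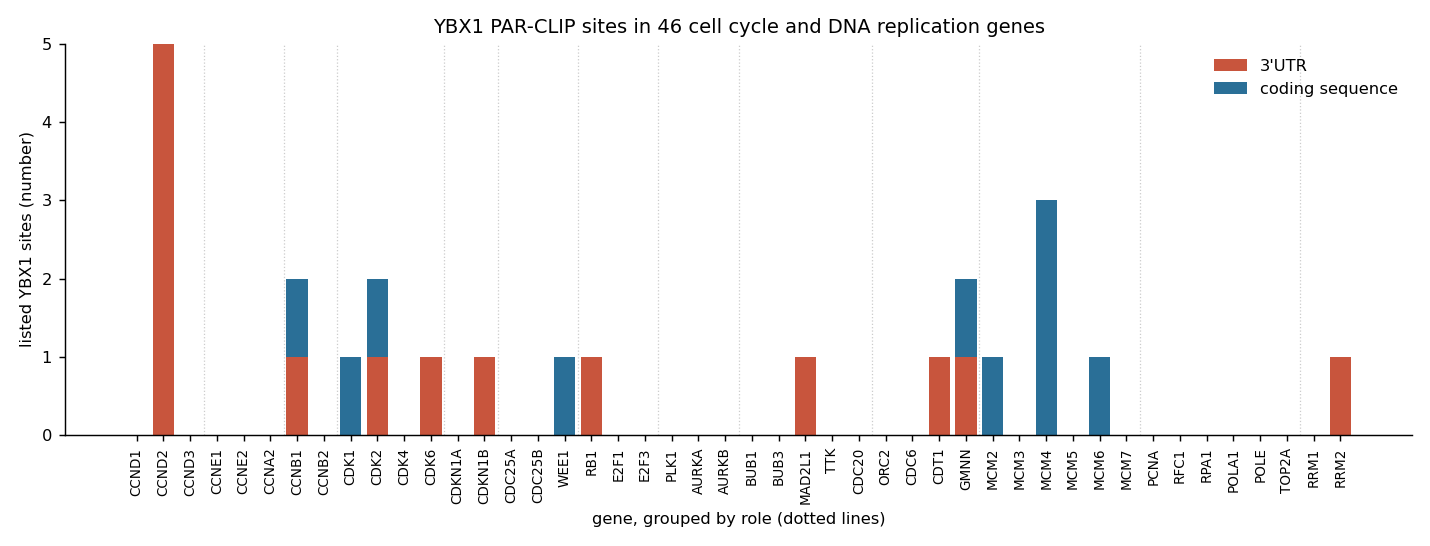
Number of listed YBX1 sites (y axis) in each of the 46 genes (x axis, grouped by role between dotted lines), with sites in 3′UTRs in red and sites in coding sequence in blue on 1 transcript per gene. CCND2 stands highest with 5 sites, all in the 3′UTR, and the 5 sites of the MCM genes are all in coding sequence.

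CCND2, a D-type cyclin that binds CDK4 and CDK6 early in the cycle, held 5 of the 24 sites (exact Poisson 95% interval of the number 1.62 to 11.7). More sites were listed in 12 protein-coding genes, and 16 genes, CCND2 among them, had exactly 5. All 5 lay in the 3′UTR, which is 5344 nt long and within exon 5 of 5, and they began at nt 1163, 1711, 3144, 4493 and 4840 after the stop codon. They were thus spread over the 3′UTR rather than set side by side, with 523, 1414, 1330 and 320 nt between neighbours. All 4 protein-coding transcripts of CCND2 in GENCODE hold all 5 sites, and an unnamed GENCODE gene on the same strand also spans them. The other D-type cyclins had no listed site, neither CCND1, with a 3′UTR of 3192 nt, nor CCND3, with one of 988 nt. Per kb of 3′UTR, CCND2 had 0.936 sites, near the median of the 10 cell cycle genes with a site there (0.802, from 0.0979 in CDK6 to 3.33 in GMNN, with 1.63 in CCNB1 and 1.02 in CDT1). The median was 0.454 over all 746 protein-coding genes with a site in the 3′UTR. Both medians cover only genes with a site there, where 1 site in a short 3′UTR gives a high value. The median 3′UTR length was 1580.5 nt in the 10 cell cycle genes. It was 2060 nt in other protein-coding genes with a site in any region. Denser binding was not tested.

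CCNB1, the B-type cyclin that drives entry into mitosis with CDK1, had 1 site in coding sequence and 1 in the 3′UTR, 270 nt apart on the transcript. The coding site covered codons 362 to 369 of 433 in exon 8 of 9, and 18 of its 24 bases are C or A (75.0%), the highest share of all 24 sites. The 3′UTR site began 76 nt after the stop codon in a 3′UTR of 614 nt. Its 18-nt sequence occurs at 2 places in the genome, so its reads cannot be assigned to CCNB1 with certainty. The sequences of the other 23 sites each match exactly at a single place, and near matches were not counted. CCNB2 had no listed site, and its 3′UTR is 168 nt long.

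Among the CDKs, the catalytic partners of the cyclins, CDK1 and CDK2 each carried a site in the first part of the coding sequence. In CDK1, the mitotic CDK, it covered codons 107 to 114 of 297 in exon 5 of 8. In CDK2, the partner of cyclins E and A, it covered codons 98 to 105 of 298 in exon 3 of 7, and a second site began 106 nt after the stop codon in a 3′UTR of 1164 nt. PMEL lies on the opposite strand at both CDK2 sites. CDK6, which pairs with D-type cyclins, had 1 site (chr7:92605791-92605811) at nt 9329 of a 3′UTR of 10219 nt, the longest of the 46 genes, which gives 0.0979 sites per kb. CDK4, the other partner of D-type cyclins, had none. Just outside the rule, 2 further sites on the strand of CDK1 lay 8103 and 8976 nt beyond its annotated end (chr10:60802943-60802968 and chr10:60803818-60803839). The deposited gene column gives them to CDK1 and classes them as intergenic, and no GENCODE gene on their strand covers them. No other listed site lay within 10000 nt of any of the 46 genes, and none lay within one of them on the opposite strand.

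The genes of CDK inhibitors, WEE1, CDC25 phosphatases, RB1 and E2F factors had 1 site each or none. CDKN1B, which encodes the CDK inhibitor p27, had a site at nt 1006 of its 3′UTR of 1342 nt (chr12:12722033-12722051), and CDKN1A, which encodes p21, had none in a 3′UTR of 1532 nt. WEE1, the kinase that holds CDK1 inactive, had 1 site in coding sequence over codons 491 to 498 of 646 (chr11:9586449-9586470), while the phosphatases CDC25A and CDC25B, which act against WEE1, had none. RB1, the retinoblastoma protein that holds back E2F factors, had the narrowest site of the 24, 17 nt at nt 657 of a 3′UTR of 1819 nt (chr13:48480728-48480744). E2F1 and E2F3 had none. For the pairs CDKN1B and CDKN1A, WEE1 and the CDC25 genes, and RB1 and the E2F genes, a site was thus listed on 1 side only. Over all 46 genes, 15 had a site (32.6%), and CDT1 and its inhibitor GMNN both had sites. Without reads, it cannot be told whether binding differs between the sides of a pair.

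Of the spindle checkpoint and anaphase genes, MAD2L1, a checkpoint protein that blocks CDC20 until chromosomes are attached, had 1 site at nt 968 of a 3′UTR of 4495 nt (chr4:120059133-120059150). The deposited annotation classes it as the end of the transcript. BUB1, BUB3, TTK and CDC20 had no listed site, although the 3′UTR of BUB3 reaches 6632 nt. That of CDC20 is 74 nt long, the shortest of the 46 genes.

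The licensing genes split between the factor that loads the helicase and its inhibitor, both with sites, and the loaders ORC2 and CDC6, with none. GMNN had 2 sites on an mRNA of 1263 nt, the shortest of the 15 with a site. The first covered codons 56 to 64 of 209 in exon 4 of 7 and lies in the coding sequence of all 6 protein-coding transcripts. The second began 71 nt after the stop codon in a 3′UTR of 300 nt and lies in 3 of the 6. Sites of other genes also lay in only some protein-coding transcripts, such as 1 of 2 for CDT1 and 2 of 4 for RB1 and CDKN1B. The coding site of CCNB1 lay in 2 of 5 and its 3′UTR site in 1 of 5. Those of CDK2, CDK6, MAD2L1, MCM6 and RRM2 lay in all. CDT1 had 1 site at nt 718 of a 3′UTR of 980 nt, with A at 13 of its 22 bases. The deposited gene column names the neighbouring gene APRT for it, and it is the only 1 of the 24 sites where that column and GENCODE differ.

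In the MCM genes, which encode the subunits of the ring-shaped replicative helicase, all 5 sites lay in coding sequence. MCM4 had 3 of them, in exons 7, 13 and 15 of 17, over codons 223 to 231, 637 to 643 and 782 to 788 of 863. MCM2 had 1 over codons 416 to 423 of 904 and MCM6 1 over codons 74 to 81 of 821. The sites therefore fell from near the start (MCM6) to near the end (the last in MCM4) of the coding sequence. MCM3, MCM5 and MCM7 had none. RRM2, the regulated subunit of ribonucleotide reductase, which makes deoxyribonucleotides, had 1 site that began 31 nt after the stop codon in a 3′UTR of 2028 nt. It was the least C- and A-rich of the 24 (39.1% of bases), with T at 13 of its 23 bases. RRM1, the large subunit, had no listed site.

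**Figure D2:**
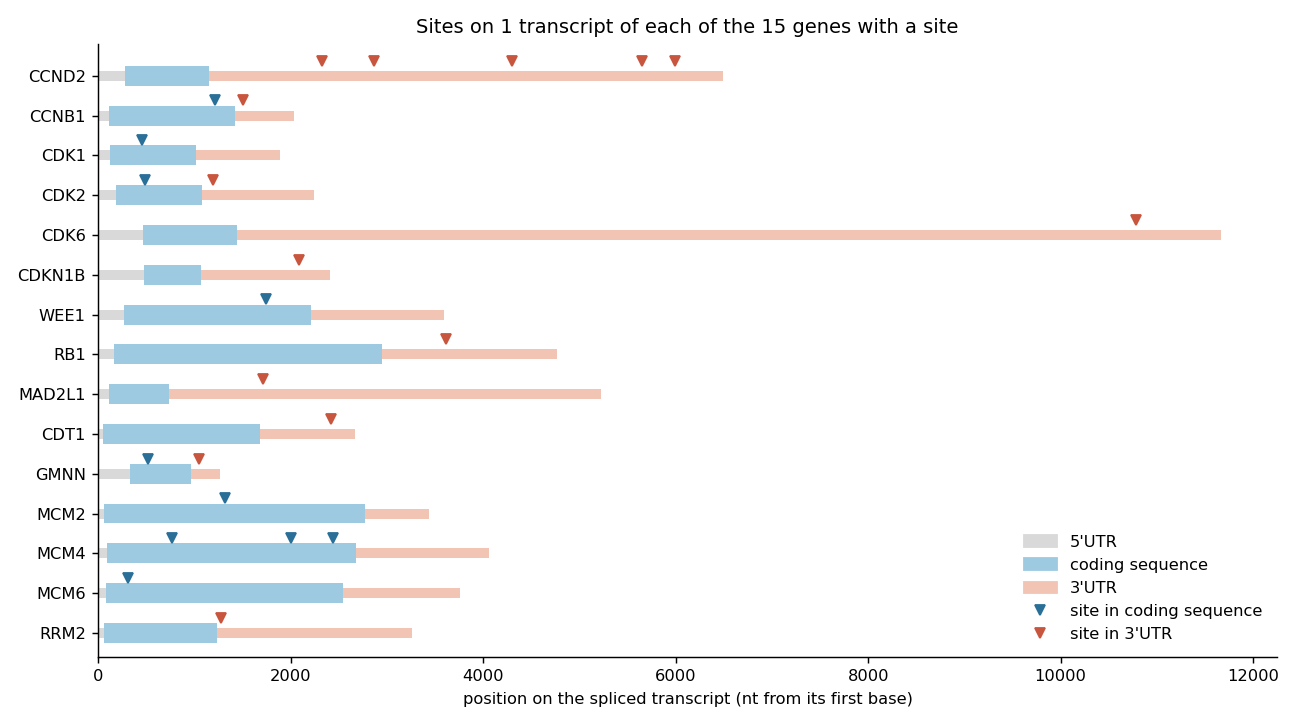
Transcript of each of the 15 genes with a site, drawn to scale in nt from its first base (x axis), with the 5′UTR in grey, coding sequence in light blue, 3′UTR in pink and the 24 sites as triangles. The sites of CCND2 spread over its 3′UTR, CDK6 holds 1 site near the end of the longest 3′UTR, and the sites of MCM2, MCM4 and MCM6 lie in coding sequence.

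Read on 1 transcript per gene, the MANE Select or canonical one, the 3′UTR held 14 of the 24 sites (58.3%, 38.8 to 75.5) and the coding sequence 10 (41.7%, 24.5 to 61.2). None of the 24 lay in a 5′UTR or an intron, and the upper limit of the Wilson interval for 0 of 24 is 13.8%. Few of the other listed sites did so either, with 1.03% in a 5′UTR. Introns held 4.83% of them, counted over all transcripts. Of the other 2030 listed sites, 46.1% (43.9 to 48.3) were in the 3′UTR and 31.0% (29.0 to 33.0) in the coding sequence. These shares are not on the same footing, since the others include sites outside genes and in noncoding genes, where a site of the 46 protein-coding genes could not lie by the rule. Among sites in 3′UTRs or coding sequence alone, 14 of 24 (58.3%) and 936 of 1565 of the others (59.8%, 57.4 to 62.2) were in the 3′UTR, and no excess was seen in the cell cycle genes.
A site counted as 3′UTR when it is 3′UTR in any GENCODE transcript gives another picture, with 20 of the 24 in 3′UTRs (83.3%, 64.1 to 93.3) and 4 in coding sequence (16.7%). Of the others that lay in either region by this count, 1117 of 1597 (69.9%, 67.6 to 72.1) were in the 3′UTR. The 6 sites that change class are those of MCM2, MCM4 and WEE1 and the first of CDK2. They are 3′UTR only in transcripts that GENCODE marks for nonsense-mediated decay, whose early stop codon turns later coding exons into 3′UTR, and in none of the protein-coding transcripts. In the deposited annotation, 12 of the 24 were 3′UTR, 10 exon and 2 (MAD2L1 and CDT1) transcript end.
By gene, 10 of 46 carried a site in the 3′UTR (21.7%, against 3.72% of all protein-coding genes) and 8 in coding sequence (17.4%, against 2.63%), with CCNB1, CDK2 and GMNN in both groups. These differences were not tested either, since the 46 genes were chosen with earlier results of these data known.

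**Figure D3:**
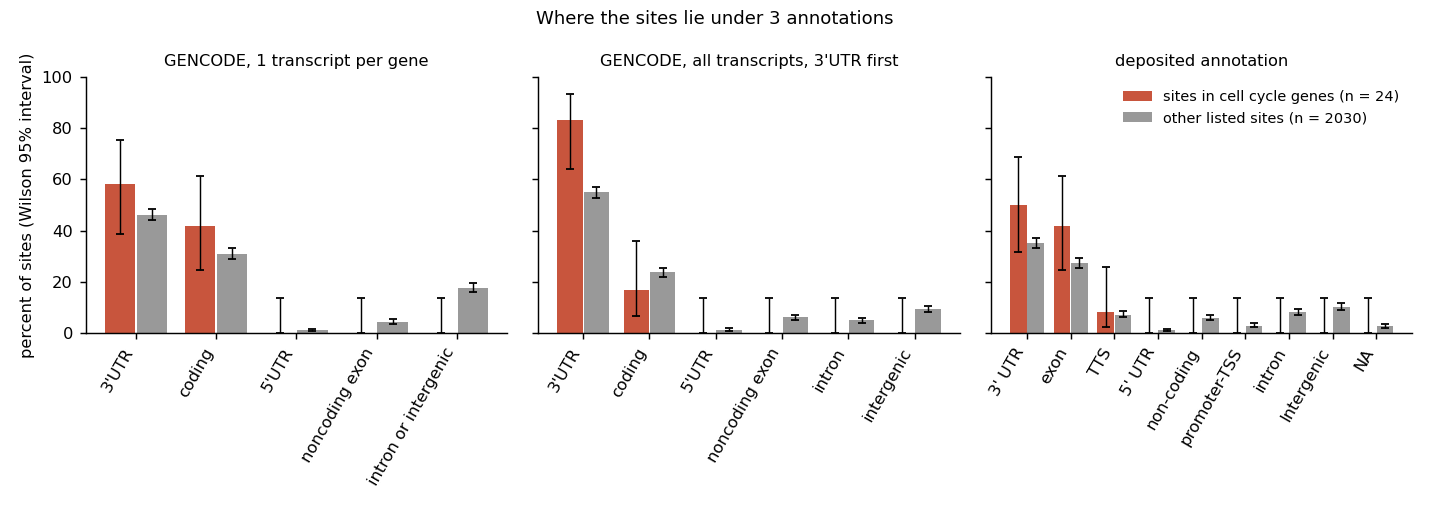
Percent of sites (y axis) by region under GENCODE with 1 transcript per gene, GENCODE over all transcripts with 3′UTR taken first, and the deposited annotation, for the 24 sites in cell cycle genes (red) and the 2030 others (grey), with Wilson 95% intervals. The 3′UTR share of the 24 reads 58.3%, 83.3% or 50% depending on the annotation, and the others include sites outside genes, which the rule keeps out of the 24.

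The 3′UTRs of the 15 genes with a site had a median of 1342 nt (300 to 10219), against 994 nt (74 to 6632) in the 31 without. In the other protein-coding genes the medians were 2060 nt with a site (n = 1333) and 1005 nt without (n = 18171). Genes with a site thus had the longer 3′UTRs at the median, while the ranges overlapped. A site in the 3′UTR was present in 4 of the 10 genes whose 3′UTR measured 2000 nt or more and in 6 of the 36 with a shorter one, and BUB3 (6632 nt), E2F3 (3284 nt), CCND1 (3192 nt), RPA1 (2907 nt) and CDC6 (2656 nt) were among those with a long 3′UTR and no site.
Taken by its midpoint, each of the 14 sites was placed along its 3′UTR, and they lay at a median of 34.4% of its length from the stop codon, from 2.07% (RRM2) to 91.4% (CDK6), and the 936 others at a median of 43.1%. Within coding sequence, the 10 sites lay at a median of 41.7% of its length, from 9.37% (MCM6) to 90.8% (MCM4), against 54.1% for 629 others. Both groups covered nearly the whole length of each region.

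**Figure D4:**
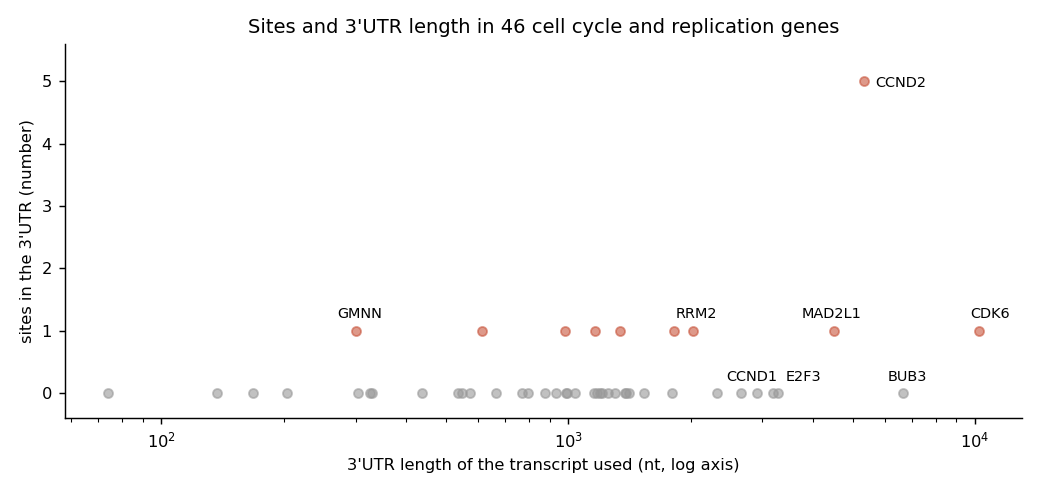
Number of sites in the 3′UTR (y axis) against 3′UTR length in nt (x axis, log scale) for the 46 genes, red with a site and grey without. CCND2 has 5 sites in 5344 nt, CDK6 1 in 10219 nt and BUB3 0 in 6632 nt.

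The 24 sites were 17 to 27 nt wide (median 21.5 nt, against 22 nt for the others), and each lay inside 1 exon. None exceeded 30 nt, and only 2.41% of the others did. All 24 ended in G and 22 of them followed a G (91.7%), the exceptions being CDK6 and MAD2L1, against 87.5% and 79.0% of the others. The last base of a site was read as 1 before its listed end because more of all sites then end in G, so the G at the end was part of how positions were read. Each site held 4 to 13 U (median 6.5), the base at which 4-thiouridine crosslinks.
C and A made up a median of 63.4% of the bases of a site (39.1% in RRM2 to 75.0% in the coding site of CCNB1), against 61.5% in the other listed sites. For 18 of the 24 sites, windows of the same width 100 nt away fitted into the same exon. C and A made up 61.1% of the bases in these sites and 47.5% in their 32 windows, and for 1392 others with windows the shares were 61.9% and 49.0%. G made up 5.03% of the 18 sites and 19.8% of their windows. With G left out, C and A were at 64.3% in the sites and 59.2% in the windows, so most of the gap in C and A goes with the lack of G. Around the centre of the sites, C and A reached 66.2% in the 10 nt that begin at the centre, against 62.5% for the others, and lay between 42.5% and 52.1% beyond 10 nt on either side.

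**Figure D5:**
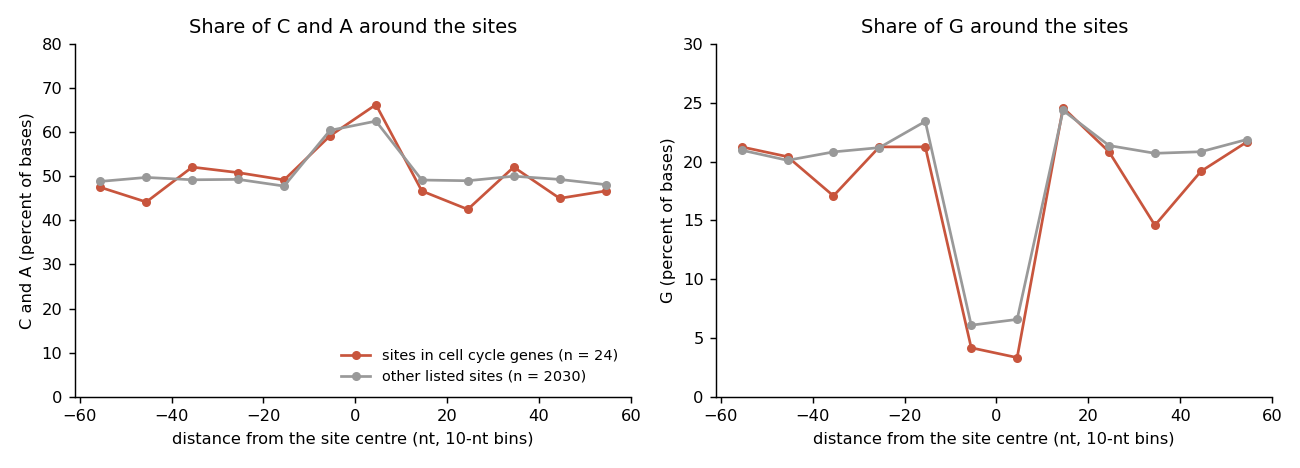
Percent of C and A (left) and of G (right) in 10-nt bins (y axis) against the distance from the site centre in nt on the genome strand of the site (x axis), for the 24 sites in cell cycle genes (red) and the 2030 others (grey). Both lines peak in C and A, at 66.2% and 62.5%, and drop in G at the centre.

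CAUC was present in 10 of the 24 sites (41.7%, 24.5 to 61.2), in CCND2, CDK2, CDKN1B, WEE1, GMNN, MCM2, MCM4 and RRM2, and in 507 of the 2030 others (23.1 to 26.9%). CAAC was present in 8 (33.3%, against 26.7%), AACA in 6 (25%, against 31.1%) and CACC in 3 (12.5%, against 14.8%). The longer strings UCAUC and UUAUC were present in 3 sites (12.5%, against 8.72%) and 1 site (4.17%, against 4.48%). At least 1 of the 4 tetramers was found in 14 of the 24 sites (58.3%, 38.8 to 75.5), against 60.5% of the others. Among the 18 sites with windows, 9 held at least 1 tetramer (50%), against 4 of their 32 windows (12.5%). For the 1392 others with windows, the shares were 63.1% in the sites and 22.0% in the windows. The tetramers hold no G, and the windows hold more G than the sites, so this gap also carries the lack of G. The intervals of the 24 sites overlap those of the others for CAUC and for the tetramers as a group, and no string was shown to be particular to the cell cycle genes. On the sequences printed above, more than 1 of the 4 strings is held by CCND2 sites 1 and 5, the coding sites of CCNB1 and GMNN, CDK2 site 2 and the MCM2 and MCM6 sites, whereas CCND2 sites 3 and 4, the 3′UTR site of CCNB1 and the CDK1 and CDT1 sites hold none.

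Beyond these 46 genes, a list of 139 further genes of the cell cycle and of replication was drawn from textbook knowledge. It was written with earlier results of these data known. Of these 139 genes, 33 carried 44 sites (23.7%, 17.4 to 31.5, against 6.81% of protein-coding genes). Here too the background holds genes that HEK293 cells may not transcribe, and the part that expression plays was not tested. GINS1, a subunit of the replicative helicase complex, and SMC1A, a subunit of cohesin, the ring that holds sister chromatids together, had 3 sites each. The 3 in GINS1 lay in the 3′UTR, and the sequence of the last occurs at 13 places in the genome. In SMC1A 2 lay in the 3′UTR and 1 in coding sequence. Genes with 2 sites each included RFC3 (a clamp loader subunit), TFDP1 (the partner of E2F factors), CCNG1, CCNI, RAD21 (cohesin) and PRC1 (the microtubule bundler of the late spindle). The 3′UTR site of TFDP1 has a sequence that occurs at 3 places in the genome, and the deposited gene column names ATP4B for it. Of the 44 sequences, 39 match exactly at a single place. On 1 transcript per gene, the 3′UTR held 20 of the 44 sites (45.5%), the coding sequence 21 (47.7%) and introns 3 (6.82%).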

How the data were processed

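YBX1 was profiled by PAR-CLIP in 2 replicates of HEK293 cells. Adapters were removed by the authors with cutadapt 1.4.1, reads were mapped through the PARA-suite pipeline (GRCh38 and transcripts), and BMix clusters, called by strand, were annotated with HOMER. They deposited 1 list of positions for both replicates together, with no read counts, so depth per site is unknown and the precision of a site cannot be given.

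Sites were read up to the base 1 before their listed end, since 87.6% of all sites then end in G (55.2% with the listed end itself). Genes, transcripts and sequences came from GENCODE release 44 and hg38, the build named in the labels. Where 1 transcript per gene was needed, the MANE Select or else the canonical transcript was used. Sequences were searched on both strands of chromosomes 1 to 22, X, Y and M, and exact matches were counted. Sites were placed with Python 3.11.15 and pysam 0.24.0, and exact Poisson intervals came from SciPy 1.17.1. Placing was checked on 1175 simulated sites, of which 1175 were read back in their region. The genes and lists were chosen with earlier results of these data known, and for that reason no enrichment test was run.

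All 46 genes are accounted for, genes of the further list are named where they had at least 2 sites, except for an item that is not reported here, and no sequence from chromosome 8 is printed. The alternatives were any overlap, no regard to strand, the deposited gene column, wider sites only, sites within 50 nt merged, sequences found at 1 place only, coding exons first, 1 transcript per gene, the deposited annotation, sites extended by 10 nt, A, C and U alone, and only sites in 3′UTRs or coding exons.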

Additional observations from a re-analysis of the deposited data

How the results depend on the processing

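Of 37 comparisons with an alternative setting, 28 stayed within 1.5 times a count or within the interval of a share. When sites of 22 nt (the median) or less were left out, 7 sites in 5 genes were left (CCND2, CCNB1, GMNN, MCM4 and RRM2), against 24 in 15. The 3′UTR share of 83.3% over all transcripts became 58.3% with coding exons first and with 1 transcript per gene, and 50% in the deposited annotation. The coding share of 16.7% became 41.7% under each of these. The share of C and A, 63.1% of all bases, was 54.2% with the sites extended by 10 nt, which adds flanking sequence. The other settings left 23 to 25 sites in 14 or 15 genes. No paired analysis was possible because the deposited list pools both replicates. The absence of reads and scores limits all counts to listed sites.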

Other observations

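Both patterns here were chosen after the values were seen, and neither was tested. The string CCAACUCU was shared by 3 of the 24 sites, in CCNB1 (coding sequence), CCND2 (the last 3′UTR site) and GMNN (3′UTR). It was present in 7 of the other 2030 listed sites (0.345%), in 0 of 32 windows near the 24 sites and in 0 of 2471 windows near the others. The coding sites of CDK1 and CDK2 lay next to each other when the coding sequences, identical at 62.2% of 890 aligned bases, were aligned end to end. The CDK1 site aligned with codons 106 to 113 of CDK2, whose own site covers codons 98 to 105, and 14 of its 22 bases were identical there. The CDK2 site aligned with codons 99 to 106 of CDK1, with 12 of 22 bases identical.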
